A study of Mus musculus with 4 samples.

Results

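The interferon regulatory factors (IRFs) are a family of transcription factors, and 8 of their genes (Irf1, Irf2, Irf3, Irf4, Irf5, Irf7, Irf8 and Irf9) were followed here in mouse macrophages, out of 24063 genes listed. The 8 were taken by name: each RefSeq transcript entry of the deposited tables was given its gene symbol, and the values of the 17 entries of these genes were summed per gene.

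The study compared C57BL/6 bone marrow-derived macrophages with an intact Batf2 gene (Batf2+/+, here WT) and with a deleted one (Batf2-/-, here KO). Marrow cells were grown for 6 days in medium with GM-CSF at 10 ng/ml, a growth factor that also yields dendritic-like cells, and the adherent cells were kept. Per the labels, all 4 groups received interferon-gamma (IFN-gamma) at 10 ng/ml for 4 h, followed by lipopolysaccharide (LPS) at 100 ng/ml for 0 h (WT 0 h, KO 0 h) or 3 h (WT 3 h, KO 3 h). Each group is 1 RNA-seq library, so there is no spread between cultures and no test was possible. The labels do not say how many mice a library stands for or which part of Batf2 was removed.

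IRF proteins share an N-terminal DNA-binding domain that reads the GAAA core of interferon-stimulated response elements. IRF3, IRF5 and IRF7 wait in the cytoplasm and are switched on by phosphorylation downstream of Toll-like and nucleic acid receptors. IRF9 joins STAT proteins in the complex ISGF3, IRF1 is made in response to IFN-gamma and opposes IRF2 at shared sites, and IRF4 and IRF8 bind DNA poorly alone and team up with PU.1 or with BATF family proteins, to which BATF2 belongs. In myeloid cells IRF4 is linked to GM-CSF and dendritic programmes and IRF8 to monocyte and macrophage identity.

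The RefSeq promoter windows (GRCm38.p6, 250 bases before to 50 after the transcript start) are shown for 4 of the genes. Irf1, Irf7 and Irf8 had the largest differences between the times, and Irf2, which shares targets with Irf1, stayed within 2-fold. Capitals mark matches, on either strand, to GAS (TTCNNNGAA, the site of STAT dimers), ISRE (GAAA, any 2 bases, GAAA, bound by IRFs and ISGF3), EICE (GGAA, any 2 bases, GAAA, a composite ETS and IRF site) or a kappaB site (GGGA or GGGG, any base, TTTCC). All windows read 5′ to 3′ along the gene. They lie at chr11:53769764-53770063 (Irf1, forward strand), chr8:120736108-120736407 (Irf8, forward), chr8:46739495-46739794 (Irf2, forward) and chr7:141266375-141266674 (Irf7, reverse).
Irf1: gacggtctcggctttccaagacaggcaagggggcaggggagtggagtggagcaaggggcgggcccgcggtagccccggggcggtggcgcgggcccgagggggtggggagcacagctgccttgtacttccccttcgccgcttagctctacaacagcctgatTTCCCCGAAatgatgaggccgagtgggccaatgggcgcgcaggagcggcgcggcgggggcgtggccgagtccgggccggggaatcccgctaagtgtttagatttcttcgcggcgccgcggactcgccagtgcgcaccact
Irf8: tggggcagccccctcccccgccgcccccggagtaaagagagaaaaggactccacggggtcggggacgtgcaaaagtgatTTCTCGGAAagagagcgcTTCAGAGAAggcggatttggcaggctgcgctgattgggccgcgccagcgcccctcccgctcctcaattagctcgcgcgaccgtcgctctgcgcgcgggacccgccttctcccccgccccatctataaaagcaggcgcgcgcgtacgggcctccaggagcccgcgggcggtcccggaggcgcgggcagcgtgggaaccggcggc
Irf2: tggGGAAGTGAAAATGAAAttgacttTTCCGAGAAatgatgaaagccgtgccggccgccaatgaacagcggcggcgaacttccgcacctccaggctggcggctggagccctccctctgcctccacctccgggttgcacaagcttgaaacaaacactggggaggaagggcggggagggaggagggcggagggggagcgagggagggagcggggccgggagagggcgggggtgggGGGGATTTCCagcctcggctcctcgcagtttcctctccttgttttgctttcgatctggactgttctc
Irf7: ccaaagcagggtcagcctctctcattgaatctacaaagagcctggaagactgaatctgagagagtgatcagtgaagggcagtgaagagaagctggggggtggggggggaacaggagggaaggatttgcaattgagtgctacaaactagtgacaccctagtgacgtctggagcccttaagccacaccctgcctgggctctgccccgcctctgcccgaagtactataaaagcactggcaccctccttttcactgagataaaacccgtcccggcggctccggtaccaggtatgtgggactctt

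All 8 genes had a window in the RefSeq table, 11 in all, because Irf1, Irf8 and Irf9 have a further start. The Irf1 window held 1 GAS match, from base -90 to -82 before the start. The first Irf8 window held 2 GAS matches, at -171 to -163 and -153 to -145. Irf2 held an EICE match (-247 to -238) that overlaps an ISRE match (-241 to -232), a GAS match (-224 to -216) and a kappaB match (-17 to -8). GAS was thus present in 3 of the 11 windows, against 8.3% of the 32851 RefSeq windows of the same length, and ISRE in 1, against 3.44% of all. The kappaB and EICE matches, each in 1 of the 11, occurred in 0.807% and 2.72% of all windows. TGANTCA (AP-1, the site of BATF and JUN proteins) matched none of the 11 and 7.81% of all. GAGGAA (a PU.1 core, not capitalised) matched 4 of the 11, in Irf2, Irf4 and both Irf9 windows, and 28.3% of all. The Irf7 window and those of Irf3 and Irf5 held none of these letters, which says only that the searched strings are not in them.

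**Figure D1:**
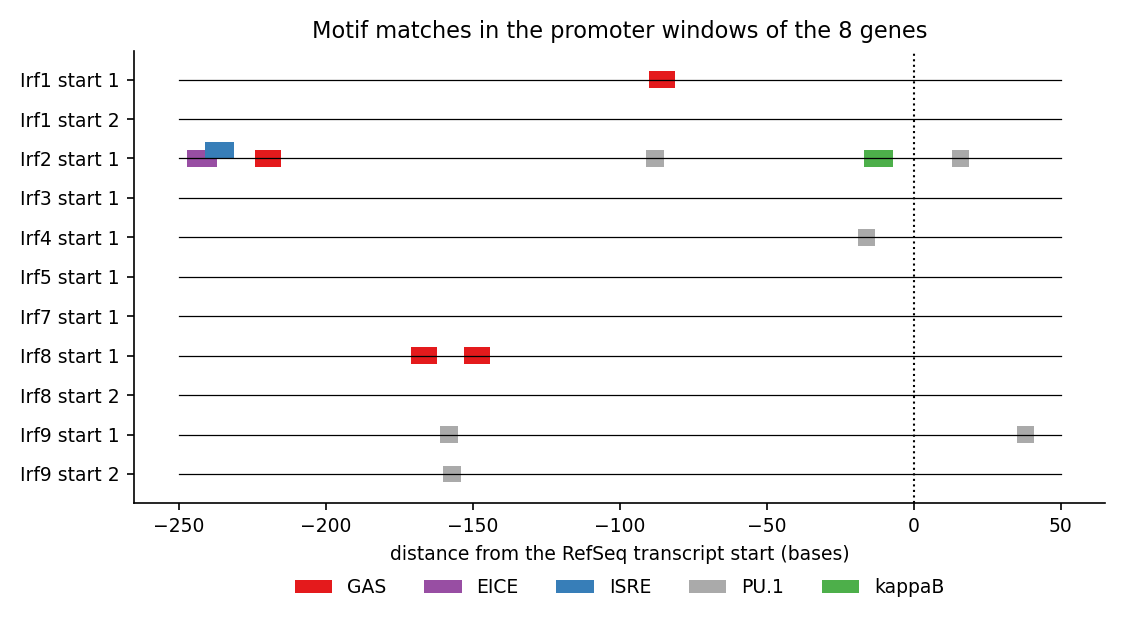
Motif matches in the 11 RefSeq promoter windows of the 8 genes, by distance in bases from the transcript start (dotted line), with 1 row per window and colours for the motif. GAS matches lie in Irf1, Irf2 and the first Irf8 window, and Irf2 has the only ISRE, EICE and kappaB matches.

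Expression is given in FPKM, a read density corrected for transcript length and library size, so levels can be set side by side between genes. Ranges in parentheses after a level carry the relative width of the authors' 95% intervals, centred on the value. They cover the counting and read assignment error of 1 library. Upper limits of entries listed at 0 put the depth of WT 0 h, KO 0 h and KO 3 h at 1.22, 1.39 and 1.51 times that of WT 3 h. The targeted gene Batf2 had 2.63 FPKM in WT and 0.26 in KO at 0 h, and 234 against 10.1 at 3 h, so it was lower in the KO libraries at both times. At 3 h its FPKM lay above its own deposited interval in WT (195 to 210) and in KO (7.87 to 9.96), and the cause was not tested. Macrophage markers were present (10 of 10 at 1 FPKM or more in every library, summed level 16182 to 24721 FPKM), and of the B cell and the T and NK cell lists none of 7 and 1 of 7 reached 1 FPKM. Neutrophil markers were higher in KO at 0 h, 11 of 11, with a summed level of 9092 FPKM against 3643 in WT, and at 3 h they summed to 5493 against 5776.

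The 0 h labels include IFN-gamma, but all 22 listed targets of IFN-gamma and IRF1 were lower there than at 3 h in both genotypes. Their 0 h levels were mixed. Cxcl9, a chemokine named for its induction by IFN-gamma, had 0.62 FPKM in WT and 0.12 in KO at 0 h. Gbp2, a guanylate-binding protein, was not low, with 49.8 and 31.6. At 3 h Cxcl9 had 1249 and 1058 FPKM, and Gbp2 had 2688 and 2236. Whether IFN-gamma exposure was alike at both times was not tested. The difference between 3 h and 0 h cannot be assigned to LPS alone, and it is called the LPS response below only for short.

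At 0 h the family was led by Irf5 in both genotypes, and at 3 h by Irf1 and Irf8. Irf5, which drives proinflammatory cytokine genes, made up 48.7% of the summed FPKM of the 8 genes in WT 0 h and 48.0% in KO 0 h. Irf4 followed with 18.1% and 15.9%, and Irf2 with 14.9% and 15.1%. At 3 h Irf1 and Irf8 made up 36.5% and 35.1% in WT and 37.0% and 32.3% in KO, while Irf5 held 10.9% and 10.7%. The sum of the 8 genes was 325 FPKM in WT 0 h, 287 in KO 0 h, 1148 in WT 3 h and 1001 in KO 3 h.

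The order of levels in WT 0 h was Irf5, Irf4, Irf2, Irf8, Irf3, Irf1, Irf9 and Irf7. The intervals of Irf3 and Irf1, and of Irf1 and Irf9, overlapped, so these neighbours are not separated. KO 0 h had the same order, with overlap of Irf4 and Irf2 and of Irf1 and Irf9. At 3 h the order in both genotypes was Irf1, Irf8, Irf5, Irf7, Irf2, Irf9, Irf4 and Irf3. There the intervals of neighbours, centred on the value, were apart in WT, and in KO those of Irf5 and Irf7 overlapped. The deposited intervals of Irf1 (415.7 to 433.0) and Irf8 (401.8 to 416.0) in WT 3 h overlapped, so the order of these neighbours depends on the centring. Irf1 and Irf8 at 3 h were higher than at least 97.6% of the genes with 1 FPKM or more in their library.

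**Figure D2:**
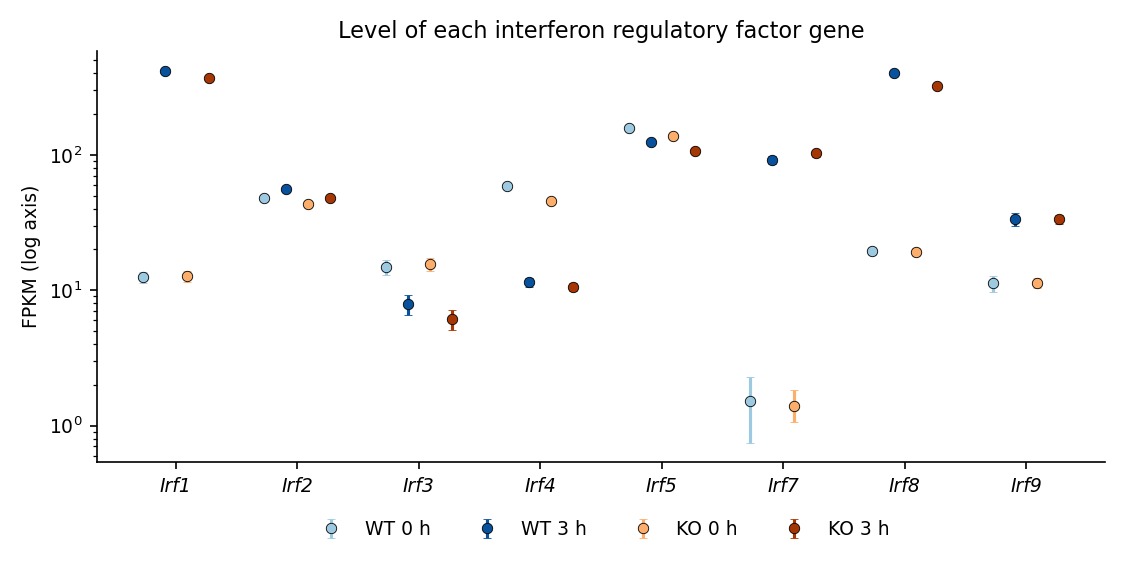
FPKM (log axis) of the 8 genes in the 4 libraries, with bars for the 95% intervals given above. Irf1, Irf7, Irf8 and Irf9 lie higher at 3 h than at 0 h in both genotypes, Irf4 and Irf3 lie lower, and the genotypes lie close together at each time.

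The first comparison asked how these genes differed between 3 h and 0 h in each genotype. A size rule took the place of a test. It asked for a change of 1 or more in log2(FPKM + 1), which is 2-fold, for 1 FPKM in a compared library, and for deposited intervals without overlap. In WT, 4 of the 8 passed as higher, where 7.55% of the 10832 genes tested did, and 1 passed as lower, where 23.2% did. In KO, 4 passed as higher (7.84% of 10949 genes) and 2 as lower (28% of them). The median difference of the 8 was 0.85 in WT and 0.81 in KO, against -0.54 and -0.64 over all genes tested. The median gene thus sat lower at 3 h on the FPKM scale, and each difference is to be read against those medians. Of all genes past the rule, 24.6% were higher in WT and 21.9% in KO; with libraries rescaled by their median ratio these shares were 54.8% and 56%, and with the upper quartile 36.7% and 36.3%.

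Irf7, the amplifier of type I interferon, had 1.51 FPKM (0.74 to 2.29) in WT 0 h, 92.0 (85.6 to 98.5) in WT 3 h, 1.40 (1.07 to 1.82) in KO 0 h and 103 (97.0 to 109) in KO 3 h. It was the lowest of the 8 at 0 h and ranked above 4 of the others at 3 h, with no overlap between the times. The ratio of 3 h to 0 h was 60.9 in WT (34.4 to 107) and 73.4 in KO (55.9 to 96.3). Irf7 lies on chromosome 7 at 141263183 to 141266499 (GRCm38, reverse strand).

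Irf1, the IFN-gamma-induced activator, had 12.4 FPKM (11.4 to 13.6) in WT 0 h, 419 (411 to 428) in WT 3 h, 12.6 (11.6 to 13.8) in KO 0 h and 370.3 (364 to 376.7) in KO 3 h. The 3 h libraries stood far above the 0 h ones in both genotypes, 33.7-fold in WT (30.8 to 37.0) and 29.3-fold in KO (26.8 to 31.98). Irf1 lies on chromosome 11 at 53770014 to 53778374 (forward strand), and its promoter with the GAS match is printed above.

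Irf8, the PU.1 partner, had 19.4 FPKM (18.2 to 20.7) in WT 0 h, 403 (396 to 410.4) in WT 3 h, 19.1 (17.9 to 20.3) in KO 0 h and 323 (318 to 328) in KO 3 h. The times did not overlap, with ratios of 20.8 in WT (19.4 to 22.2) and 16.9 in KO (15.8 to 18.03). Irf8 lies on chromosome 8 at 120736358 to 120756694 (forward strand). In absolute size, the differences of Irf1, Irf7 and Irf8 exceeded those of at least 98.8% of the genes tested in each genotype.

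Irf9, the DNA-binding subunit of ISGF3, had 11.3 FPKM (9.76 to 12.8) in WT 0 h, 33.6 (30.0 to 37.2) in WT 3 h, 11.4 (10.4 to 12.4) in KO 0 h and 33.4 (30.8 to 36.1) in KO 3 h. It was 2.98-fold higher at 3 h in WT (2.51 to 3.55) and 2.94-fold in KO (2.61 to 3.30), a smaller ratio than that of the 3 genes above. Irf9 lies on chromosome 14 at 55603985 to 55610030 (forward strand).

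Irf4, the other PU.1 and BATF partner, went the opposite way. It had 58.8 FPKM (56.7 to 60.9) in WT 0 h, 11.4 (10.5 to 12.3) in WT 3 h, 45.7 (44.1 to 47.4) in KO 0 h and 10.6 (9.84 to 11.3) in KO 3 h. Both 3 h libraries lay below both 0 h libraries, 5.15-fold in WT (4.72 to 5.62) and 4.33-fold in KO (4.01 to 4.68). Since Irf8 was higher at 3 h, the ratio of Irf4 to Irf8 FPKM was 3.03 in WT 0 h and 0.028 in WT 3 h, with 2.39 and 0.033 in KO. Irf4 lies on chromosome 13 at 30749233 to 30766981 (forward strand).

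Irf3, the first responder for interferon-beta, had 14.9 FPKM (12.99 to 16.7) in WT 0 h, 7.93 (6.59 to 9.27) in WT 3 h, 15.6 (13.8 to 17.3) in KO 0 h and 6.09 (5.06 to 7.11) in KO 3 h. The 3 h levels lay below the 0 h levels in both genotypes. The difference was -0.83 in WT, which did not pass the size rule, and -1.22 in KO, which did. The KO call ended with a pseudocount of 5 (-0.89), with median ratio rescaling (-0.64) and with upper quartile rescaling (-0.93). Irf3 lies on chromosome 7 at 44997648 to 45002848 (forward strand).

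Irf5 and Irf2 stayed within 2-fold. Irf5 had 158 FPKM (154 to 163) in WT 0 h, 125 (119 to 131) in WT 3 h, 138 (134 to 142) in KO 0 h and 107 (103 to 110.3) in KO 3 h. Its differences of -0.33 in WT and -0.37 in KO turned to 0.20 and 0.27 with median ratio rescaling, so the direction depends on the scale. Irf2, the counterpart of Irf1, had 48.2 FPKM (45.7 to 50.7) in WT 0 h, 55.6 (52.7 to 58.5) in WT 3 h, 43.3 (41.1 to 45.6) in KO 0 h and 47.9 (45.8 to 49.9) in KO 3 h. The Irf2 differences of 0.20 in WT and 0.14 in KO became 0.73 and 0.77 with median ratio and 0.44 and 0.46 with upper quartile rescaling. The ratio of Irf1 to Irf2 FPKM was 0.26 in WT 0 h and 7.54 in WT 3 h, with 0.29 and 7.74 in KO. Irf2 FPKM lay outside its own deposited interval in all 4 libraries, and the cause was not tested. Irf5 lies on chromosome 6 at 29526130 to 29541869 and Irf2 on chromosome 8 at 46739745 to 46847458 (both forward).

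**Figure D3:**
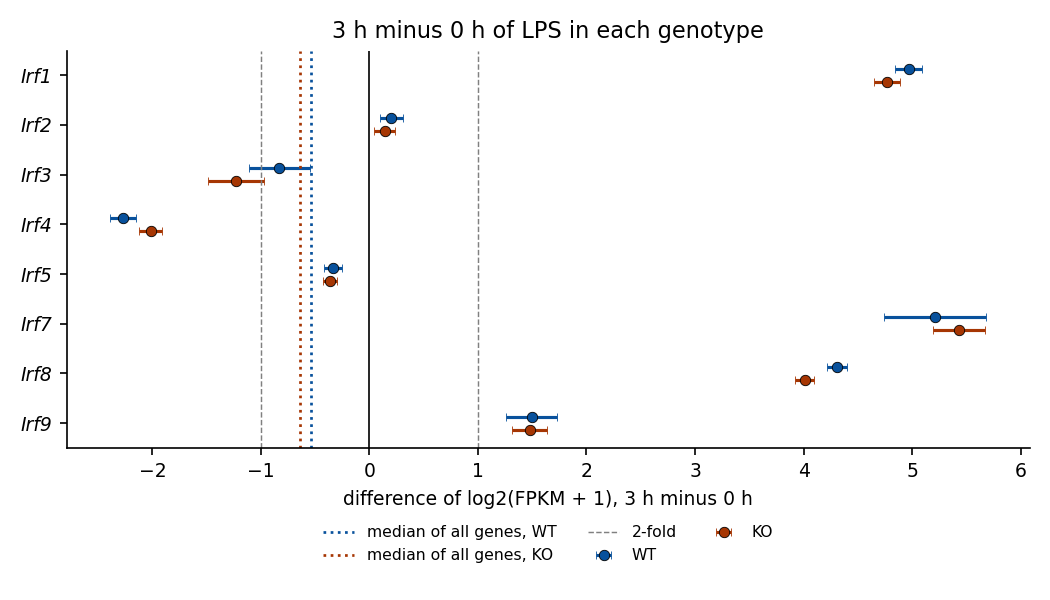
Difference of log2(FPKM + 1), 3 h minus 0 h, for the 8 genes in WT and KO, with intervals propagated from the deposited ones; dotted lines mark the median of all genes tested and dashed lines 2-fold. Irf1, Irf7, Irf8 and Irf9 lie above 2-fold in both genotypes, Irf4 lies below, and Irf3 passes the lower line in KO alone.

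The second comparison asked how loss of Batf2 bears on these genes at each time. None of the 8 passed the size rule at 0 h, where 1.68% of 10831 genes did, or at 3 h, where 1.39% of 9797 did. With no replicate, no p-value stands behind these counts. With entries summed, the largest absolute differences were 0.35 (Irf4 at 0 h) and 0.33 (Irf3 at 3 h, -0.44 with the highest entry only). At 3 h, 7 of the 8 were lower in KO with a median of -0.20, while all genes had a median of -0.07 and 34.4% of them were higher. Irf9, at -0.01, turned to 0.08 and 0.06 with the median ratio and upper quartile rescaling and to 0.05 with the highest entry only. At 0 h, 5 were lower and 3 higher with a median of -0.04, against -0.00 over all genes, and Irf9, at 0.01, turned to -0.00 with median ratio rescaling. With the highest entry only, Irf7 turned from -0.07 to 0.29 at 0 h and Irf9 reached 0.37.

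Irf8 had the clearest genotype difference at 3 h relative to its interval, at -0.32 (-0.35 to -0.29), or 1.25-fold lower in KO (1.22 to 1.28). With median ratio rescaling this was -0.23. At 0 h it differed by -0.02 (-0.15 to 0.10), so that the KO and WT levels were not separated before LPS. Irf1 showed a like pattern, -0.18 (-0.22 to -0.14) at 3 h and 0.02 (-0.14 to 0.19) at 0 h, and its 3 h value was -0.09 with median ratio and -0.11 with upper quartile rescaling. Whether differences of this size recur between cultures was not tested.

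Irf4 differed at 0 h by -0.35 (-0.43 to -0.28), or 1.29-fold lower in KO (1.22 to 1.35), and at 3 h by -0.10 (-0.24 to 0.04). Its 0 h difference was larger in absolute size than that of 88.7% of genes tested. Irf2 and Irf5 were lower in KO at both times, Irf2 by 1.11-fold and 1.16-fold and Irf5 by 1.15-fold and 1.17-fold at 0 h and 3 h. The Irf5 difference at 3 h, -0.23, was -0.14 with median ratio rescaling. It was -0.07 with the highest entry only, which leaves out NM_001252382, an entry listed at 0 in all libraries but WT 3 h. Irf7 was the 1 member higher in KO at 3 h, by 1.12-fold, with deposited intervals that overlapped. With entries summed, deposited intervals were apart for 3 of the 8 at 0 h (Irf2, Irf4 and Irf5), all lower in KO, where 9.22% of genes were lower and apart. At 3 h they were apart for 4 (Irf1, Irf2, Irf5 and Irf8), again all lower, where 16.8% of genes were. The 3 genes at 0 h were the 3 highest of the 8 there. The 4 at 3 h each stood above at least 85.4% of the genes with 1 FPKM or more in their library. Intervals are narrower relative to the level in high genes, and these shares of all genes were not matched for level. Irf5 counts among the 4 at 3 h through NM_001252382: the intervals of its main entry, NM_012057, overlapped at 3 h. Taken alone, the highest entry of Irf7 was higher in KO at 3 h (0.23), with intervals apart. That of Irf3 was lower in KO at 3 h (-0.44), and that of Irf9 higher in KO at 0 h (0.37), each with intervals apart.

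**Figure D4:**
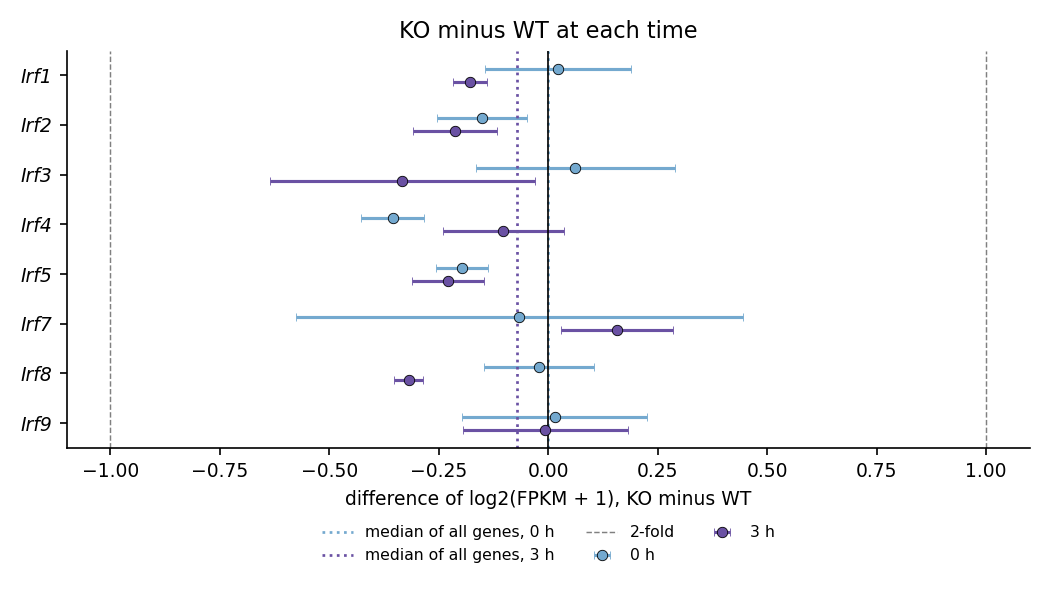
Difference of log2(FPKM + 1), KO minus WT, for the 8 genes at 0 h and 3 h, with propagated intervals; dotted lines mark the median of all genes tested and dashed lines 2-fold. All points lie within 2-fold, with Irf8 at -0.32 and Irf1 at -0.18 at 3 h and near 0 at 0 h, and Irf4 at -0.35 at 0 h.

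Cells other than macrophages can carry Irf4 and Irf8, and their marker lists were set beside these values. The 10 conventional dendritic markers summed to 700.3 FPKM in WT and 642 in KO at 0 h, and to 531 and 571 at 3 h, with 3 of 10 higher in KO at each time. Flt3, a defining receptor of these cells, stayed under 0.1 FPKM in all libraries. Clec9a, a marker of the Irf8-dependent dendritic subset, had 3.71 FPKM in WT and 1.59 in KO at 0 h. At 3 h Clec9a had 9.68 against 2.16 and passed the size rule as lower in KO. Ccr7 of the same list went the other way at 3 h, with 18.2 FPKM in WT and 35.2 in KO, and did not pass. The plasmacytoid list summed to 66.1 and 74.5 FPKM at 0 h and to 163 and 162 at 3 h, with Bst2, itself interferon-induced, at 149 of the 163 FPKM in WT 3 h. Plasma cell markers, another Irf4 setting, summed to 97.9 and 96.1 at 0 h and 56.6 and 56.3 at 3 h. Mast cell, basophil and eosinophil markers summed to 28.6 and 42.7 at 0 h and 40.02 and 34.5 at 3 h, and stromal markers to 41.5 and 85.2 and to 157 and 145. The part of these cells, and of the neutrophil markers that were higher in KO 0 h, in the Irf values was not tested, and in bulk RNA fewer cells of a type cannot be told apart from less RNA per cell.

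The third comparison set the LPS response of KO against that of WT. None of the 8 reached a difference of 1, where 2.34% of 11111 genes did so with an interval apart from 0. The values share libraries with those above and add no independent evidence. They were -0.40 (-0.77 to -0.02) for Irf3, -0.30 (-0.43 to -0.17) for Irf8, -0.20 (-0.37 to -0.03) for Irf1 and 0.25 (0.10 to 0.41) for Irf4, the 4 whose intervals left out 0, as did those of 30.1% of genes. Irf7 had 0.22 (-0.30 to 0.75), which turned to -0.06 with the highest entry only, and Irf2, Irf5 and Irf9 lay between -0.06 and -0.02, and their signs turned with either rescaling.

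Below the gene level, 6 of the 8 genes had over 1 RefSeq entry, and the split was the estimate of the authors' software from single reads. For Irf1 the entry with a downstream start and a longer entry from the first start, and for Irf8 the entry with a downstream start, were listed at 0 in all 4 libraries, so the gene value came from NM_008390 and NM_008320, which start at the printed promoters. For Irf9 the larger part came from the entry that starts at base 55604579, downstream of the first start at 55603985. That entry, NM_001159418, had 8.61 FPKM in WT 0 h, 23.5 in WT 3 h, 11.4 in KO 0 h and 24.5 in KO 3 h, or 76.5%, 70.1%, 100% and 73.2% of the gene.

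Other entries split unevenly between libraries. Irf9 NM_008394 had 2.65, 5.19 and 8.97 FPKM in WT 0 h, WT 3 h and KO 3 h and was listed at 0 in KO 0 h, and NM_001159417 was listed above 0 in WT 3 h alone, at 4.86. Irf5 NM_001252382, with a start at 29529282, had 13.3 FPKM in WT 3 h (deposited interval 11.8 to 14.9), 10.6% of the gene, and was listed at 0 in the other libraries. Irf7 NM_001252601 held 38.9% of the gene in WT 3 h and 35.7% in KO 3 h, with NM_016850 at 61.1% and 64.3%. The non-coding Irf3 entry NR_045611 held 27.1% in WT 0 h, 12.1% in WT 3 h, 16.7% in KO 0 h and 19.9% in KO 3 h. A listing of 0 here can be a failed assignment, and these splits are given as listed.

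**Figure D5:**
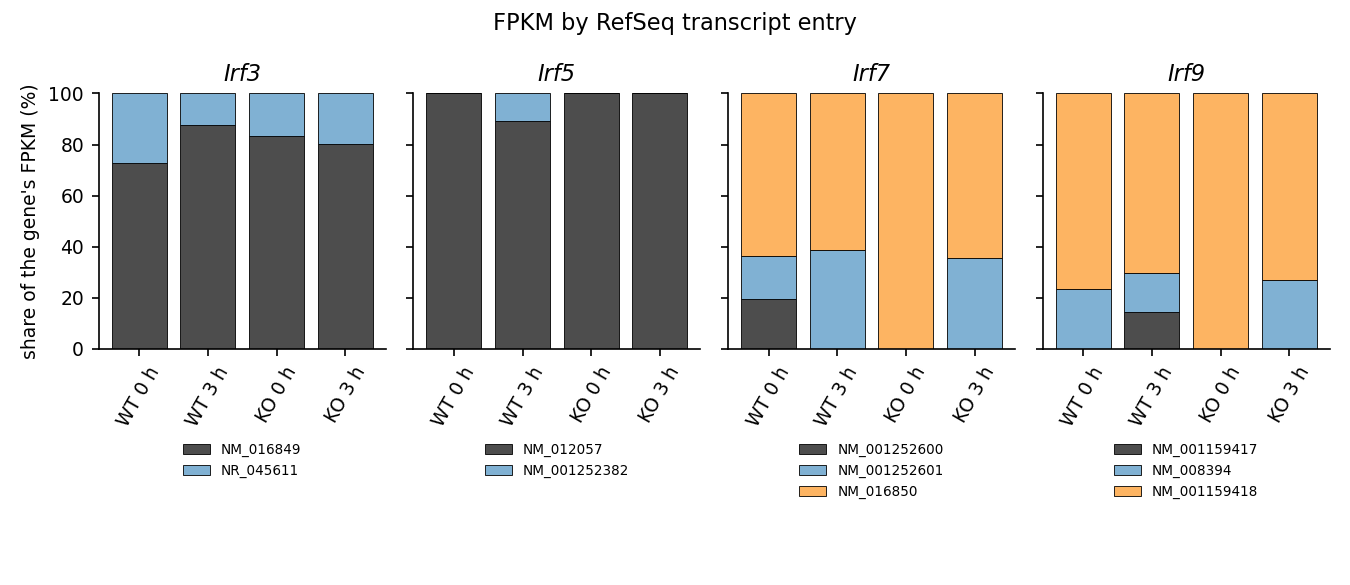
Share of the gene's FPKM (%) held by each RefSeq transcript entry of Irf3, Irf5, Irf7 and Irf9 in the 4 libraries, 1 bar per library. NM_001159418 holds 70.1% or more of Irf9 in each library, and NM_001252382 of Irf5 appears in WT 3 h alone, at 10.6%.

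Partners and activators of the IRFs were taken from fixed lists, which were chosen with earlier results of these data known. Of all genes tested, 7.55% in WT and 7.84% in KO passed as higher at 3 h, and 23.2% and 28% as lower. Between genotypes 1.68% passed at 0 h and 1.39% at 3 h, so a short list without a call is near those shares. All list counts here and below are to be read against these shares. Of 11 measured DNA partners, 6 passed as higher at 3 h in each genotype and 1 (WT) and 2 (KO) as lower. Stat2, a subunit of ISGF3, had 16.4, 86.0, 12.4 and 96.2 FPKM in WT 0 h, WT 3 h, KO 0 h and KO 3 h. Spi1, which encodes PU.1, had 309, 386, 312 and 315, and so stayed within 2-fold. Batf3, which pairs with JUN proteins and IRF8 or IRF4, was lower at 3 h (39.4, 10.6, 28.2 and 7.44 FPKM), and Batf had 22.4, 21.2, 21.8 and 28.5. Between genotypes Batf2, the targeted gene itself, was the 1 partner past the rule. Batf2 is also among the 6 partners that passed as higher at 3 h in each genotype.

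A list of 21 measured genes held receptors, sensors, kinases and adaptors upstream of IRF3, IRF5 or IRF7. Of these, 6 passed as higher in each genotype, where 7.55% and 7.84% of all genes did. As lower, 2 (WT) and 4 (KO) passed, where 23.2% and 28% of all genes did. The list medians were 0.15 and 0.25. With median ratio rescaling 10 were higher and 1 lower in each genotype. Ikbke, a kinase of IRF3 and IRF7, had 24.6, 62.8, 35.5 and 89.8 FPKM in the same order of libraries, and its partner kinase Tbk1 had 28.7, 47.6, 29.4 and 48.7. Ifih1, an RNA sensor upstream of both, had 5.46, 176, 5.03 and 196, and it is also in the list of ISGF3 targets, so these lists overlap. None passed between genotypes at 0 h or 3 h, where 1.68% and 1.39% of all genes did. Of 7 interferon receptors and Janus kinases, 1 passed as higher in each genotype, Jak2 (53.1, 178, 37.9 and 215 FPKM), and 1 as lower, Ifngr1, and none between genotypes. With 7 genes, 1 or none past the rule is near the shares of all genes. With median ratio rescaling 2 were higher and none lower in each genotype, so the Ifngr1 call ended.

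Genes known as IRF targets were followed in the same way. All 22 ISGF3 targets passed as higher at 3 h in both genotypes (medians 4.54 and 4.99), where 7.55% and 7.84% of all genes did. Rsad2 and Ifit2 led in level. Between genotypes none passed at 3 h, where 1.39% of all genes did, with 18 of 22 higher in KO and a median of 0.19. Rsad2, an antiviral enzyme, came nearest with 890.0 FPKM in KO against 468, a difference of 0.93 that passed with median ratio rescaling. Of 22 IFN-gamma and IRF1 targets, 21 were called higher in WT (median 4.02) and all 22 in KO (median 3.94), and none between genotypes. At 3 h, 16 of 22 were lower in KO, with a median of -0.12 (-0.04 with median ratio rescaling). Over all genes tested at 3 h, 6430 of 9797 were lower in KO, with a median of -0.07. Of 2 measured type I interferon genes, Ifnb1 had 19.5 FPKM in WT and 20.6 in KO at 3 h, 0.068 in WT 0 h and a listing of 0 in KO 0 h, and Ifna9 had 1.02 and 0.42 at 3 h. In the RefSeq windows, 11 of 17 ISGF3 targets and 9 of 18 IFN-gamma and IRF1 targets held the ISRE letters in a window, against 3.99% of 27025 genes, and of the 8 Irf genes Irf2 alone did.

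Lists tied to IRF8, IRF5 and IRF4 split by list. Of 12 genes linked to IRF8 and PU.1, 2 were called higher in WT and 3 in KO, where 7.55% and 7.84% of all genes were. None was called between genotypes, near the share of all genes. Ctsc, the protease cathepsin C, had 254, 796, 219 and 602 FPKM in the same order, and Cybb, the NADPH oxidase subunit gp91phox, had 475, 559.9, 553 and 612. All 9 cytokines linked to IRF5 passed as higher at 3 h in both genotypes (medians 5.93 and 6.10), and all 9 were higher in KO at 3 h (median 0.39), of which Il23a passed at 49.8 against 10.6 FPKM. Il12b, a target of IRF1, IRF5 and IRF8, stood at 2916 FPKM in KO 3 h against 1867 in WT 3 h and did not pass. Its relation to the levels of those 3 Irf genes was not tested.

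Of the 14 genes linked to IRF4 in GM-CSF and alternatively activated cells, 5 passed between genotypes at 0 h, where 1.68% of all genes did, and 1 of 13 at 3 h, where 1.39% did. At 0 h, when Irf4 was 1.29-fold lower in KO, their median was -0.46 with 9 of 14 lower, against -0.00 over all genes (-0.79 of 13 with median ratio rescaling). Ccl22, Cd209a and Il1rl1 passed as lower and Chil3 and Retnla as higher. Retnla was listed at 0 in WT and at 1.19 FPKM in KO, near the 1 FPKM filter. With median ratio rescaling 1 gene passed as higher and 3 as lower. Ccl22, a chemokine, had 302 FPKM in WT and 149 in KO, Il1rl1, the interleukin-33 receptor, had 20.0 and 6.28, and Chil3, a chitinase-like lectin, had 180 and 439. Ccl17, another chemokine, had 4348 and 2553 and Mgl2, a lectin, 610 and 348, neither past the rule. The neutrophil markers stood at 9092 FPKM in KO 0 h against 3643 in WT 0 h, and their part in this list was not tested. At 3 h, Pdcd1lg2, which encodes PD-L2, was the 1 call, at 35.8 FPKM in WT and 13.7 in KO, and the median was -0.06 (0.02 with median ratio rescaling). Between the times, 3 passed as higher and 6 as lower of 13 in WT, and 4 and 5 of 14 in KO, with Irf4 lower in both. The list was chosen with earlier results of these data known, so its counts beside the shares of all genes add no independent evidence. The list and Irf4 come from the same 2 libraries per comparison, and a relation between them was not tested.

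Genes with profiles closest to each member that passed in an LPS response were taken by the Euclidean distance between log2(FPKM + 1) values over the 4 libraries, each profile centred on its mean, among 7022 genes with a mean of at least 5 FPKM. The nearest to Irf1 were Gbp10 (distance 0.15) and Ifih1 (0.25), to Irf7 Usp18 (0.21) and Gbp6 (0.30), and to Irf8 Serpinb9 (0.085) and Rasgef1b (0.13). For Irf9 they were H2-M3 (0.020) and Phldb1 (0.069), for Irf4 Cdc25b (0.053) and Hdac5 (0.058), and for Irf3 Commd8 (0.022) and Rpusd4 (0.033). Serpinb9 had 6.70, 148, 6.17 and 124 FPKM in WT 0 h, WT 3 h, KO 0 h and KO 3 h, at a lower level than Irf8 throughout. With 4 points shared by all genes, nearness describes shape in these libraries and nothing more.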

How the data were processed

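RNA of 4 macrophage cultures, 1 library per group, was read as single reads from strand-specific libraries, per the labels' protocols. TopHat2, Bowtie, SAMtools, Cufflinks and the build mm9 are named, without versions, in the submitters' processing notes. The deposited FPKM values come per RefSeq entry, with 95% limits and a status. Of the named entries, 96.9% start inside the GRCm38 gene of their name, so coordinates are given as GRCm38. Of 33841 entries, 33437 were named from RefSeq accessions, 187 from the GENCODE RefSeq table, 118 by position (overlap of at least 0.5) and 99 kept their accession. FPKM was summed per symbol. Per library, 402 to 435 entries did not have the status OK, and their genes were left untested there. All 17 entries of the 8 Irf genes were OK.

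Differences are taken between log2(FPKM + 1) values, KO minus WT or 3 h minus 0 h, without rescaling; propagated intervals combine the half-widths of the libraries in quadrature. No test or p-value was computed. The size rule (2-fold, 1 FPKM or more, deposited intervals apart) was run on simulated counts. These held counting error alone, at equal depth and without variation between cultures. The run therefore says nothing about how often cultures of 1 genotype would differ past the rule. Named genes were the 8 members, Batf2, the 4 highest genes and every genotype call of 11 lists, 10 set genes, the 2 highest of each of 9 marker lists, and the 2 nearest profiles; some of these stand in counts only or are not reported here. Flt3, Clec9a, Ccr7 and Ifngr1 lie outside this rule and were named after their values were seen. Tasl and Ly6g were not matched to an entry. Members and lists were chosen with earlier results of these data known. Alternatives were other pseudocounts, scalings, filters, folds and the highest entry of each gene. Python 3.11.15, pandas 2.3.3, numpy 2.4.6 and matplotlib 3.10.9 were used.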

Additional observations from a re-analysis of the deposited data

Results flagged for a closer look

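The Irf9 entry NM_008394 stood out because its genotype difference had opposite directions at the 2 times with deposited intervals apart at both. On the log2(FPKM + 1) scale it was -1.87 at 0 h (listed at 0 in KO, 2.65 FPKM in WT) and 0.69 at 3 h (8.97 against 5.19 FPKM). The gene totals differed by 0.01 and -0.01 at these times, the entry shares its start with NM_001159417, and the difference between the times was not tested.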

How the results depend on the processing

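No replicate could be left out, since each group is 1 library. No paired analysis was possible because each group has a single sample and the labels give no replicate numbers. The counts of Irf genes past the size rule stayed at 0 in both genotype comparisons and in the difference of LPS responses under all 9 alternatives, at 4 to 6 in WT and 4 to 6 in KO after LPS. The 4-gene counts came with the 3-fold rule, which ended the calls of Irf9 in both genotypes and of Irf3 in KO. Of 360 single values of the 8 genes under the alternatives, 334 were counted as kept, 6 calls ended and 1 began (Irf3 in WT with the 1.5-fold rule). Uncalled values counted as kept only within their interval, and 19 moved beyond it. Called values counted as kept when call and direction held, whatever their size, and none changed sign. Irf1 in WT, for instance, went from 4.97 (4.84 to 5.09) to 5.48 with median ratio rescaling, outside its interval.

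The median difference of the 8 genes in the LPS response, 0.85 in WT and 0.81 in KO, was 0.72 and 0.68 with a pseudocount of 5, 1.37 and 1.43 with median ratio rescaling, 1.08 and 1.12 with upper quartile rescaling, and 0.59 in KO with the highest entry only. Calls among the listed pathway genes at 3 h between genotypes, 3 in the main setting, were 5 with a pseudocount of 0.1, 5 with median ratio rescaling and 11 with the 1.5-fold rule. At 0 h they were 6, and 2 with a pseudocount of 5, 11 with the highest entry only, 14 with the 1.5-fold rule and 0 with the 3-fold rule. In the main setting the calls at both times include Batf2, the targeted gene.

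Over all genes, the 136 calls between genotypes at 3 h were 267 and 44 with pseudocounts of 0.1 and 5, 86 at 5 FPKM or more, 294 with the highest entry only, and 483 and 43 with the 1.5-fold and 3-fold rules. The 182 at 0 h were 339, 62, 117, 324, 508 and 44 in that order. The 3327 calls after LPS in WT were 1380 with a pseudocount of 5, and 6190 and 1224 with the 1.5-fold and 3-fold rules, and the 3919 in KO were 1576, 6920 and 1397, and 2500 with median ratio rescaling. The 260 for the difference of responses were 482, 126, 544, 737 and 113 with the pseudocounts, the highest entry and the 1.5-fold and 3-fold rules. Depth limits Irf7 at 0 h, whose interval in WT runs from 0.74 to 2.29 FPKM.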

Other observations

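Proteins known to bind or modify IRFs formed a further list of 12 genes. Of these, 4 passed as higher and 5 as lower at 3 h in each genotype. Of all genes, 7.55% (WT) and 7.84% (KO) passed as higher and 23.2% and 28% as lower. The list medians of -0.35 in WT and -0.65 in KO became 0.15 and -0.05 with median ratio rescaling. Tnfaip3, the ubiquitin-editing enzyme A20, had 13.2 FPKM in WT 0 h, 217 in WT 3 h, 12.3 in KO 0 h and 223 in KO 3 h. Peli1, a ubiquitin ligase of the Pellino family, had 5.33, 72.4, 5.64 and 75.8 in the same order. Rbck1, a subunit of the linear ubiquitin ligase, had 30.4, 30.6, 29.3 and 22.6. No gene of this list passed the size rule between genotypes at 0 h (12 measured) or at 3 h (11 measured).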
